A study of Homo sapiens with 6 samples.

Results

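SOX9 siRNA B was compared with a non-targeting control siRNA in VCaP cells, a human prostate cancer cell line whose TMPRSS2 gene, driven by androgen, is fused to the ETS transcription factor gene ERG. The comparison used 4 of the 6 arrays of the study, the 2 titled for siRNA B and the 2 titled for the control siRNA. The other 2 arrays carried a second SOX9 siRNA, siRNA A, and were used for the common estimate of spread and for a direct comparison of the siRNAs. All 3 groups came from this single cell line, kept in DMEM with 10% FBS, and the design text describes its basal SOX9 level as high. Transfection was transient, total RNA was taken 72 h later, and biotinylated cRNA from 6 ug of it was hybridised to Affymetrix Human Genome U133 Plus 2.0 arrays. The design text calls the 2 arrays of a group biological duplicates, without saying how the cultures were set up, so the p-values measure the spread between arrays of a group. The question was which genes differ when SOX9 is targeted, with a differential analysis against control as the stated aim.

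SOX9 is a transcription factor of the SOX family, which bind short AT-rich DNA through an HMG box and bend it. It is best known for directing cartilage formation and sex determination, and it is present in the epithelium of the developing prostate and in prostate cancer. The series title links it to WNT signalling, in which WNT ligands bind Frizzled and LRP receptors, beta-catenin is spared from a destruction complex and enters the nucleus, and TCF/LEF factors switch on its targets.

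Of the 54675 probe sets on the array, 41091 had 1 gene symbol and stood for 19775 genes. The probe set with the highest mean signal represented its gene, and the 12431 genes whose mean reached the array-wide median were tested. Values below are the deposited MAS5 signals in arbitrary units, and log2 differences were taken after adding 16. The siRNA B arrays were less alike than the control arrays, with a correlation over the tested genes of 0.965 within siRNA B and 0.988 within control, against 0.943 to 0.982 between the groups. Replicate 2 of siRNA B had the highest trimmed mean signal of the 6 arrays and replicate 1 the lowest, 190 against 144, and over all tested genes the median lay at 0.13 and -0.17 from the control mean on the log2 scale. The 3'/5' signal ratio of GAPDH was 1.04 to 1.19 and that of ACTB 2.91 to 3.79 over the 6 arrays. All 10 luminal prostate markers with a matched probe set, of 12 sought, passed the filter, and their summed signal was 28085 to 30537 in control arrays and 28767 to 30272 in siRNA B arrays. Of 18 markers of fibroblasts, endothelium, blood cells and red cells with a probe set, 5 passed the filter. The summed signal of all 18 was 514 to 747 in control and 1163 to 2535 in siRNA B arrays, and that of the 5 was 402 to 596 and 1024 to 2315, carried by LUM and COL1A1.

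SOX9, the targeted gene, had a lower signal in both siRNA B arrays than in either control array. Its signal was 1469 and 1126 in control and 609 and 334 under siRNA B, with the lower value in replicate 2. On the log2(signal + 16) scale the siRNA B mean corresponded to 35.9% of control, a difference of -1.48 (SE 0.34) that missed the threshold (limma adjusted p = 0.111). The second SOX9 probe set gave 1558 and 1270 against 570 and 293, a log2 difference of -1.74 (limma adjusted p over all probe sets = 0.0773). In the siRNA A arrays the first probe set read 1108 and 673. Thus the siRNA B arrays were separated from the control arrays in both probe sets, while in the first the 2 siRNA B arrays differed from each other by nearly as much as their nearer one did from control. In bulk RNA, fewer cells with a transcript and less of it per cell cannot be told apart. Without replicate 1 of siRNA B, the larger difference of replicate 2, -1.90, had a limma adjusted p of 0.0140, but the siRNA B group is then 1 array, assumed to vary like the other groups.

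In the test across all genes, 23 of 12431 passed (Benjamini-Hochberg adjusted p below 0.05 in limma), 0.185% of those tested. Of these, 11 rose (0.0885% of tested genes) and 12 fell (0.0965%), with adjusted p from 0.0116 to 0.0302, and 1399 genes had an unadjusted p below 0.05. In each of the 23, both siRNA B arrays lay at least 2-fold beyond both control arrays. The genes that rose were 4 UDP-glucuronosyltransferases of the UGT2B family, the sugar-digesting enzyme SI, the steroid-metabolising cytochrome CYP1B1, the zinc transporter SLC30A4, the protease MMP10, the growth factor binding protein IGFBP5, and COXFA4L3 and HMGN2P46. Those that fell were the WNT receptor FZD7, NPY6R, EPHA8, TESC, COL14A1, ART3, SLC24A2, SMCO4, UBAP2, SLC25A39, METTL9 and DR1. These calls depended on the scaling and on 1 array. The count was 0 after quantile normalization, median centring or a common trimmed mean (1833, 1623 and 1764 genes at an unadjusted p below 0.05), 0 without the filter on dim genes (1629 genes), 0 without siRNA B replicate 2 (1021 genes) and 991 without siRNA B replicate 1. It was also 8 with only the compared groups in the fit, 10 and 13 without siRNA A replicates 1 and 2, and 41 and 69 without control replicates 1 and 2. None of the 23 genes changed direction in any alternative in which it had a value, and each was called in 7 to 15 of its 18 to 20 alternatives.

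**Figure D1:**
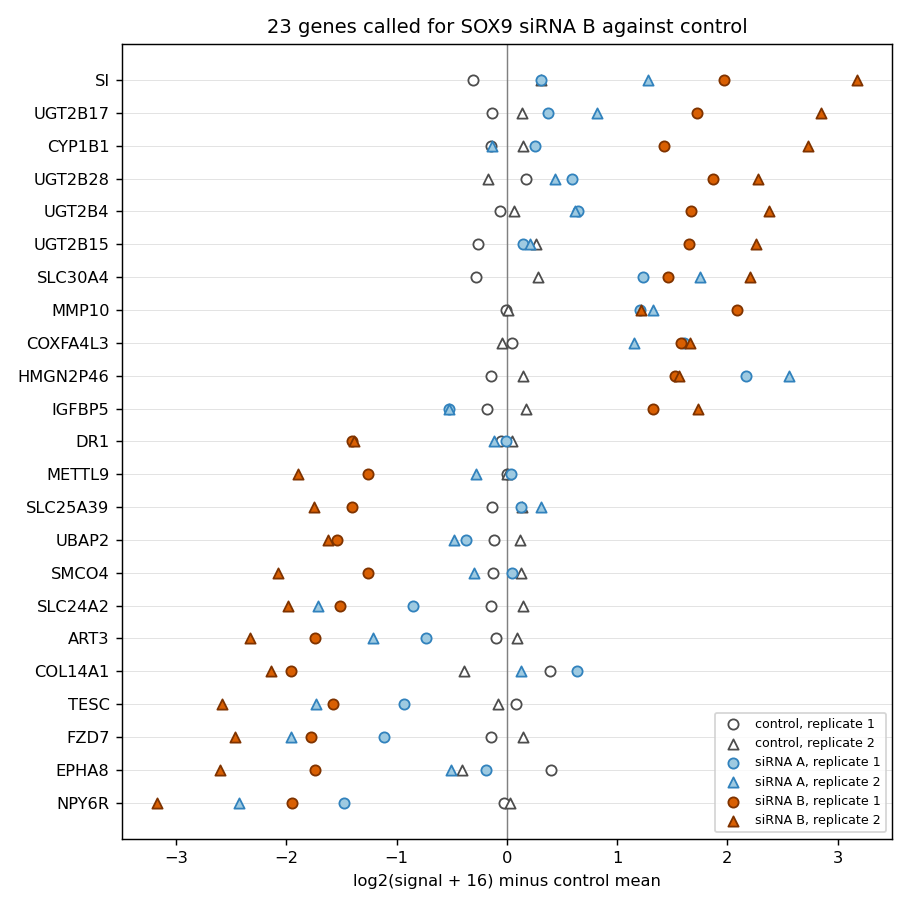
Each of the 23 genes called for siRNA B against control is a line, with the log2(signal + 16) of each of the 6 arrays minus the control mean on the x axis (open symbols control, blue siRNA A, orange siRNA B, circles replicate 1 and triangles replicate 2). All orange symbols lie beyond the open ones, for SI at 1.97 and 3.18 and for NPY6R at -1.95 and -3.17, whereas the blue symbols of UGT2B15, IGFBP5, COL14A1, DR1 and SLC25A39 lie close to or across the control values.

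Promoter sequences were read from RefSeq (GRCh38.p14) to show what stands before 3 of these genes. SI had the largest rise, and UGT2B15 was the one called UGT2B gene matched in the promoter table. ART3 fell, and the window shown for it holds a SOX core motif. The 3 genes were picked after the values were seen. The 250 bases before the annotated start follow, 5′ to 3′ on the gene's strand, with the motif AACAAT in capitals (ATTGTT where it lies on the opposite strand). The SI window is chr3:165078497-165078746 on the minus strand, that of UGT2B15 chr4:68670653-68670902 on the minus strand, and that of ART3 the second of its annotated starts, chr4:76053866-76054115 on the plus strand.
SI: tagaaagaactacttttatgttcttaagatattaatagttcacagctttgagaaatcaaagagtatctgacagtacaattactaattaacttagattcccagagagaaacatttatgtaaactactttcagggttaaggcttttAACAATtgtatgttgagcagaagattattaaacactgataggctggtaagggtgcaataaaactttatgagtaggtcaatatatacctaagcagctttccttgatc
UGT2B15: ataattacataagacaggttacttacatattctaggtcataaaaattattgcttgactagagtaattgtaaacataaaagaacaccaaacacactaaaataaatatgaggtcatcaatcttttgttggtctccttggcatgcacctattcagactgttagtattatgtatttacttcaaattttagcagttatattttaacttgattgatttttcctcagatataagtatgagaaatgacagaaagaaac
ART3: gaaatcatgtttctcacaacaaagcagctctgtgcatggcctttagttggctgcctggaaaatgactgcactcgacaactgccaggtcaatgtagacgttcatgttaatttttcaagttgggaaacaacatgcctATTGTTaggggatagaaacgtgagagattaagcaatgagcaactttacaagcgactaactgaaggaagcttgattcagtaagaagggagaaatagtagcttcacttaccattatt
The motif begins 106 bases before the start of SI and 115 bases before the ART3 start shown. These letters are not in the UGT2B15 window, nor in the window of the other annotated ART3 start. The window of SI also holds the TCF/LEF motif CTTTGAT on the opposite strand, 196 bases before the start. Among the 23 called genes, 14 had promoter windows in the RefSeq table, 20 in all, each from 250 bases before to 50 after a start. AACAAT, searched on both strands, was in 2 of these 20 (10%) and in 3553 of all 35116 windows (10.1%). CTTTGAT, searched likewise, was in 1 of 20 (5%) and in 2.62% of all windows. The share with the SOX core among the called genes was close to that of all promoters, and a match of letters is not a binding site.

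The UGT2B enzymes attach glucuronic acid to steroids and other lipophilic compounds, and UGT2B15 and UGT2B17 inactivate androgens in the prostate. Their 4 tested members rose together with siRNA B. UGT2B15 had a signal of 329 and 481 in control arrays and 1289 and 1968 in siRNA B arrays, a log2 difference of 1.96 (SE 0.31, limma adjusted p = 0.0123). The same gene read 442 and 464 with siRNA A, within the control range, and the direct comparison of the siRNAs passed (log2 difference 1.78, limma adjusted p = 0.0390). UGT2B17 went from 29.3 and 38.8 to 149 and 343 (log2 difference 2.29, SE 0.34, limma adjusted p = 0.0116). UGT2B28, also active on androgens, went from 68.1 and 50 to 256 and 345 (log2 difference 2.07, SE 0.28, limma adjusted p = 0.0116). For UGT2B4, which acts on bile acids in the liver, the values were 23.5 and 27.0 against 115 and 199 (log2 difference 2.03, SE 0.30, limma adjusted p = 0.0116). In each of the 4 genes the siRNA B array of replicate 2 was the higher one, and no siRNA B array overlapped a control array. With siRNA A, UGT2B17 (48.6 and 71.9), UGT2B28 (96.4 and 84.8) and UGT2B4 (48.4 and 47.1) were also above both control arrays. They stayed below the siRNA B arrays. Between the siRNAs UGT2B28 passed (limma adjusted p = 0.0464), while UGT2B17 (0.0798) and UGT2B4 (0.107) did not. The genes lie in 1 cluster on chromosome 4 and their transcripts are much alike. The probe sets of UGT2B15 and UGT2B28 carry probes that may also bind transcripts of their relatives, so the share of each gene is uncertain. A further UGT2B15 probe set of this kind was higher by 2.37. It read 75.5 and 104 in control and 153 and 130 with siRNA A, above control. Of 16 tested genes of UGT2B and steroid metabolism, 7 lay above both control arrays in both siRNA B arrays (4 of them called) and 4 below. Among all tested genes, 13.1% lay above, 26.3% lay below and 0.185% were called. HSD17B4, a peroxisomal enzyme of the list, read 1843 and 1974 against 2539 and 4757 and was not called (limma adjusted p = 0.259).

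SI encodes sucrase-isomaltase, an intestinal enzyme that splits sucrose and starch fragments. Its signal was 273 and 426 in control and 1379 and 3218 in siRNA B arrays, a log2 difference of 2.57 (SE 0.40, limma adjusted p = 0.0123). The siRNA A arrays read 425 and 849, the first within the control range and the second below siRNA B. The rise of SI was the largest among the tested genes. CYP1B1, which hydroxylates oestrogens and is a target of the aryl hydrocarbon receptor, went from 145 and 179.6 to 461 and 1162 (log2 difference 2.08, SE 0.36, limma adjusted p = 0.0254). A pair of further CYP1B1 probe sets differed by 2.12 and 2.13, and siRNA A, at 195 and 145, was near control. SLC30A4 encodes ZnT4, which moves zinc from the cytosol into vesicles. It read 1394 and 2059 against 4687 and 7879.9 (log2 difference 1.83, SE 0.28, limma adjusted p = 0.0116), and its other probe sets differed by 2.49 and 1.88. With siRNA A it read 4005 and 5756, also above both control arrays (log2 difference 1.49, not called). Of 21 tested zinc transporters, SLC30A4 alone was called, against 0.185% of all tested genes. In all, 3 lay above and 3 below both control arrays, and 7 lay above after each of the other 3 scalings, which also raised the share of all tested genes above from 13.1% to between 21.7% and 25.3%. SLC39A7, a zinc transporter in the membrane of the endoplasmic reticulum, read 645 and 725 against 797 and 1393 and did not pass.

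A pair of called genes lie near SLC30A4 on chromosome 15: 1 annotated gene stands between it and the pseudogene HMGN2P46, and 5 between it and COXFA4L3, a small protein related to a cytochrome oxidase subunit. COXFA4L3 had 412 and 386 in control and 1220.3 and 1299 in siRNA B arrays (log2 difference 1.62, SE 0.28, limma adjusted p = 0.0240). HMGN2P46 had 45.0 and 58.5 against 178 and 183 (log2 difference 1.54, SE 0.27, limma adjusted p = 0.0286), from a probe set whose probes may bind relatives of it. In these neighbours the siRNA B replicates were close to each other, and the siRNA A arrays lay on the same side as siRNA B, at 1246 and 908 for COXFA4L3 and 287 and 381 for HMGN2P46. MMP10, stromelysin-2, which degrades extracellular matrix, read 66.7 and 67.6 against 337 and 177 (log2 difference 1.65, SE 0.30, limma adjusted p = 0.0302). With siRNA A it read 176 and 192, also above both control arrays (log2 difference 1.27, not called). MMP10 and, by a narrow margin, DR1 were the called genes in which replicate 1 stood farther from control than replicate 2. IGFBP5, which binds insulin-like growth factors, read 81.4 and 108 against 259 and 350.9 (log2 difference 1.53, SE 0.28, limma adjusted p = 0.0302). With siRNA A it read 60.6 and 60.7, below control. Of the further IGFBP5 probe sets above the filter, one differed by 1.04 and another by 0.04, and those under the filter by 0.35, 0.69 and 1.39.

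FZD7, one of the Frizzled receptors that WNT ligands bind, fell and was the only called member of the WNT lists. It read 162 and 202 in control and 41.5 and 19.6 in siRNA B arrays, a log2 difference of -2.12 (SE 0.33, limma adjusted p = 0.0123). Its second probe set differed by -1.28, and siRNA A gave 74.8 and 34.7, between control and siRNA B in replicate 1 and in the siRNA B range in replicate 2. The replicate 2 value of siRNA B lay under the filter level of 22.0, so the size of the fall there rests on the offset. Of 14 tested WNT receptors and co-receptors, 1 lay above and 7 below both control arrays in both siRNA B arrays, against 13.1% and 26.3% of all tested genes. Of these 14, FZD7 alone was called, against 0.185% of all tested genes. After other scalings 2 lay above (14.3%) and 5 or 6 below (35.7% to 42.9%). The shares of all tested genes were then 21.7% to 25.3% above and 24.6% to 25.4% below. FZD5, at 517 and 615 against 791 and 1469.5, was the one above. FZD4 read 1117 and 1380.1 against 921 and 511, FZD10 75.8 and 89.0 against 52.2 and 35.9, and the co-receptor RYK 1575 and 1977 against 1150.3 and 1181. None of these 4 passed the test, with limma adjusted p from 0.273 to 0.407.

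Of the other WNT lists none held a called gene. Among all tested genes, 13.1% lay above and 26.3% below both control arrays in both siRNA B arrays. Of 4 tested ligands, 1 lay below control, WNT2 (370.2 and 473 against 223 and 148), and 2 above it, among them WNT5A, a ligand of mainly beta-catenin-independent signalling (137 and 186 against 219 and 668). Of 18 antagonists and members of the destruction complex, 2 lay above and 9 below both control arrays, DKK3 and KREMEN2 among those below. Of 20 genes of signal transduction, 4 lay above (20%) and 6 below (30%), near the shares of 13.1% and 26.3% over all tested genes. TCF7L2, which binds DNA as partner of beta-catenin, read 989 and 966 against 692 and 432, and CTNNBIP1, which keeps beta-catenin from TCF, read 215 and 183 against 126 and 84.9. Of 23 beta-catenin/TCF targets, 11 lay below and 2 above, with a median log2 difference of -0.27, against -0.02 over all tested genes. In limma 6 of these targets had an unadjusted p below 0.05, against 1399 of all 12431 tested genes. MYC, a growth-promoting transcription factor, read 6618 and 7730.1 against 4799.7 and 1933 (log2 difference -1.23, limma adjusted p = 0.129). PPARD, a nuclear receptor for fatty acids, read 281 and 279 against 134 and 137, with little difference between replicates. NRCAM and TNFRSF19 also lay below, at -1.09 and -0.78. BAMBI, a decoy receptor of the TGF-beta family, was above control, at 89.6 and 74.5 against 213 and 202 (log2 difference 1.19, limma adjusted p = 0.105). Of the 8 tested SOX genes, 4 lay below both control arrays and none above, against 26.3% and 13.1% of all tested genes. Those below were the targeted SOX9, SOX1 (-0.77), SOX12 (-0.63) and SOX7 (-0.57), and none passed.

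The largest fall among the called genes was that of NPY6R, which is a neuropeptide Y receptor pseudogene in humans. Its signal was 815 and 850.3 in control and 203 and 78.2 in siRNA B arrays (log2 difference -2.56, SE 0.38, limma adjusted p = 0.0116). TESC, a calcium-binding regulator of a sodium-proton exchanger, read 847 and 756 against 258 and 119.7 (log2 difference -2.08, SE 0.36, limma adjusted p = 0.0228). ART3, of the ADP-ribosyltransferase family, read 128 and 148 against 29.8 and 14.4 (log2 difference -2.04, SE 0.30, limma adjusted p = 0.0116). The replicate 2 value of ART3 was under the filter level, and its log2 difference was -2.67 with an offset of 1 and -1.23 with an offset of 64. In NPY6R, TESC and ART3, and in SLC24A2, a sodium, calcium and potassium exchanger (255 and 317 against 89.5 and 59.8, log2 difference -1.75), the siRNA A arrays also lay below both control arrays. COL14A1, a fibril-associated collagen, read 83.3 and 42.0 against 3.6 and 1.2 (log2 difference -2.05), and EPHA8, an ephrin receptor, 136 and 70.8 against 18.4 and 2.9 (log2 difference -2.17). The siRNA B values of both genes were under the filter level, so these log2 differences depend on the offset. The other EPHA8 probe set differed by 0.22.

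In the remaining genes that fell, the siRNA B arrays were well above the filter level. SMCO4, a small membrane protein, read 4752 and 5691 in control and 2158 and 1219 in siRNA B arrays (log2 difference -1.67, SE 0.26, limma adjusted p = 0.0123). SLC25A39, which carries glutathione into mitochondria, read 615 and 749 against 246 and 190.2 (log2 difference -1.58, SE 0.29, limma adjusted p = 0.0302). UBAP2, a ubiquitin-binding protein, read 1354 and 1592 against 495 and 465 (log2 difference -1.58), and its second probe set differed by -1.16. In UBAP2 and SLC25A39 the siRNA B replicates were close to each other, whereas in SMCO4 replicate 2 was well below replicate 1. METTL9, a histidine methyltransferase, read 1559 and 1559.5 against 642 and 408 (log2 difference -1.58), with -0.93 and -0.92 in its other probe sets above the filter. DR1, a repressor of transcription that binds the TATA-binding protein, read 1715 and 1841 against 662 and 669.5 (log2 difference -1.40), but its 7 other probe sets lay between -0.61 and 0.12. Over the called genes, 13 had further probe sets, 31 in all, of which 19 were above the filter. Of those 19, 14 lay on the same side of both control arrays in both siRNA B arrays as the called one.

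Counting by distance instead of by test, 51 genes (0.410% of those tested) had both siRNA B arrays at least 2-fold beyond both control arrays, 15 above (0.121%) and 36 below (0.290%), and 28 of them were not called. The split moved to 24 above and 21 below after quantile normalization, 18 and 25 after median centring and 20 and 22 with a common trimmed mean. The nearest genes inside the limit were ACSS1 and ALOX12-AS1 and, next, CENPM, the latter pair with separations of 1.01 and -1.01 on the log2 scale, and the nearest outside were ENTREP1, HIP1 and CHSY1 at -0.998, -0.993 and -0.987. PLAT, tissue plasminogen activator, was among those below but did not pass: it read 311 and 257 against 73.0 and 9.2 (log2 difference -2.66, SE 0.74, limma adjusted p = 0.165), and 172 and 1.5 with siRNA A. Its replicates were far apart in both siRNA groups, and the siRNA B replicate 2 value was under the filter level, so the size of its log2 difference depends on the offset. The chemokine receptor CXCR6, under the filter level in both siRNA B arrays, read 44.5 and 43.0 against 4.8 and 2.7, and ELK3, an ETS factor, 395 and 557 against 185 and 123. Of the genes above, LBH, a transcription cofactor of limb bud and heart, read 19.9 and 38.9 against 109 and 110.1 (limma adjusted p = 0.0552), and TMEM178A read 77.4 and 87.1 against 194 and 420.0.

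**Figure D2:**
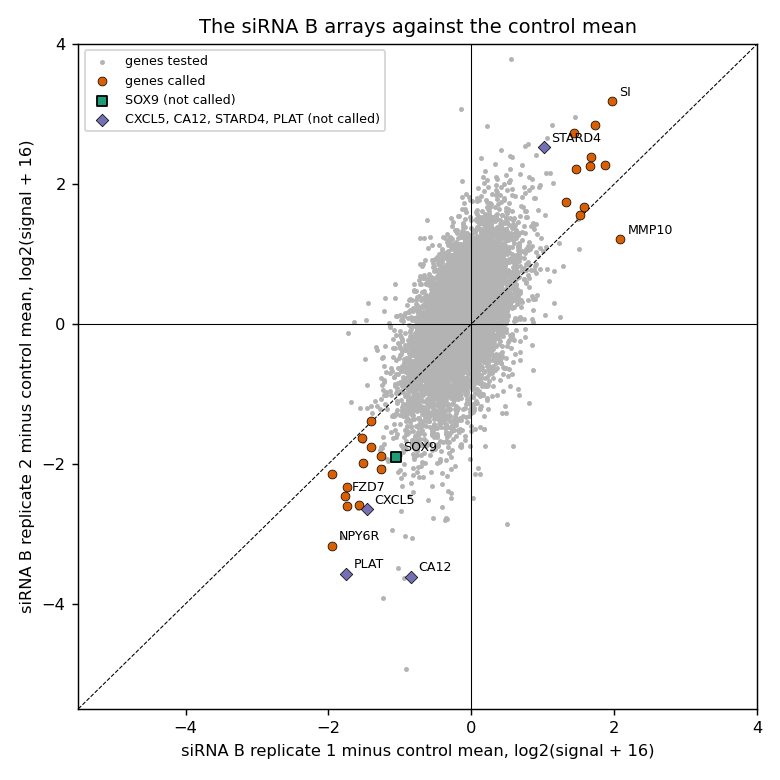
Each tested gene is a point, with the log2(signal + 16) of siRNA B replicate 1 minus the control mean on the x axis and that of replicate 2 on the y axis (orange called genes, green square SOX9, purple diamonds CXCL5, CA12, STARD4 and PLAT, dashed line equal values). The called genes lie where both arrays are far from 0, and most of them, like CA12 at -0.84 and -3.61, are farther out in replicate 2.

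Cholesterol and fatty acid synthesis had the highest median of the 30 lists. All 24 tested members had a positive log2 difference, 16 lay above both control arrays in both siRNA B arrays and none below, against 13.1% and 26.3% of all tested genes, and the list median was 0.87. None was called in limma, and 16 had an unadjusted p below 0.05, against 1399 of all 12431 tested genes. The list median was 0.26 in replicate 1 and 1.55 in replicate 2 of siRNA B, and 0.01 and 0.79 in the same replicates of siRNA A, so the height of the shift went with replicate 2. After the other 3 scalings 21 members lay above (87.5%), against 21.7% to 25.3% of all tested genes. STARD4, which carries cholesterol between membranes, read 96.9 and 81.0 against 195 and 586 (log2 difference 1.77, limma adjusted p = 0.129). MSMO1, a sterol methyl oxidase, read 2372 and 2432 against 3564 and 9139.7, and IDI1, an isomerase of the isoprenoid pathway, 1324 and 1244 against 1851 and 5272. In both, replicate 1 stood modestly and replicate 2 far above control. SREBF1, a transcription factor that drives lipid synthesis, read 123 and 159.7 against 212 and 809, and SC5D, a sterol desaturase, 2541 and 2407 against 3313 and 6328.

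Of 44 tested genes of DNA replication and the G1/S transition, 26 lay below both control arrays in both siRNA B arrays and none above, against 26.3% below and 13.1% above among all tested genes, and 42 had a negative log2 difference. None was called in limma, and 12 had an unadjusted p below 0.05, against 1399 of all 12431 tested genes. The list median was -0.54 and -0.43 for the siRNA B replicates and 0.16 and 0.05 for those of siRNA A. The control arrays themselves lay at -0.24 and 0.24, so the siRNA A medians were within the control range, and the difference between the siRNAs was not tested for the list. After the other scalings 31 or 32 members lay below, against 24.6% to 25.4% of all tested genes. TYMS, thymidylate synthase, read 2327 and 2986 in control, 1401 and 1698 with siRNA B and 3233 and 4292 with siRNA A. The 2 siRNAs lay on opposite sides of control, but the direct comparison did not pass (log2 difference -1.26, limma adjusted p = 0.0672). CDT1, which licenses replication origins, read 233 and 241 against 125 and 76.3, and POLD3, a subunit of DNA polymerase delta, 360.4 and 386 against 188 and 146. The helicase subunits MCM3 and MCM2 had log2 differences of -0.88 and -0.80. In the list of mitosis and G2/M, 10 of 40 members lay below and 2 above, a share below close to the 26.3% of all tested genes. After other scalings, however, 15 to 19 lay below (37.5% to 47.5%), against 24.6% to 25.4% of all tested genes. The list median was -0.44 in replicate 1 and 0.14 in replicate 2 of siRNA B. MKI67, the Ki-67 proliferation marker, read 159 and 171 against 78.0 and 112, and TOP2A, topoisomerase II alpha, 3490.4 and 3613 against 2481 and 2206. NUSAP1, KIF11 and CDK1, which act on the spindle or drive entry into mitosis, had log2 differences of -0.68, -0.67 and -0.55, and none passed.

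NF-kappaB targets and chemokines had the lowest median of the 30 lists, -0.79. Of 21 tested members, 17 lay below both control arrays in both siRNA B arrays, against 26.3% of all tested genes, and none above. None was called in limma, and 9 had an unadjusted p below 0.05, against 1399 of all 12431 tested genes. The median was -0.49 in replicate 1 and -1.15 in replicate 2, and 0.09 and -1.65 in the siRNA A replicates, so replicate 2 was lower in both siRNA groups while replicate 1 was lower with siRNA B. CXCL10, an interferon-induced chemokine, read 1199 and 1174 in control, 609.8 and 81.5 with siRNA B and 1856 and 125 with siRNA A. CXCL5, a neutrophil-attracting chemokine, read 301 and 352 against 109 and 38.6 (log2 difference -2.05, limma adjusted p = 0.129). CXCL3 and CXCL6, of the same chemokine family, had log2 differences of -1.47 and -1.27. SOD2, the mitochondrial superoxide dismutase, was close between replicates at 68.7 and 75.8, against 118 and 159 in control.

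**Figure D3:**
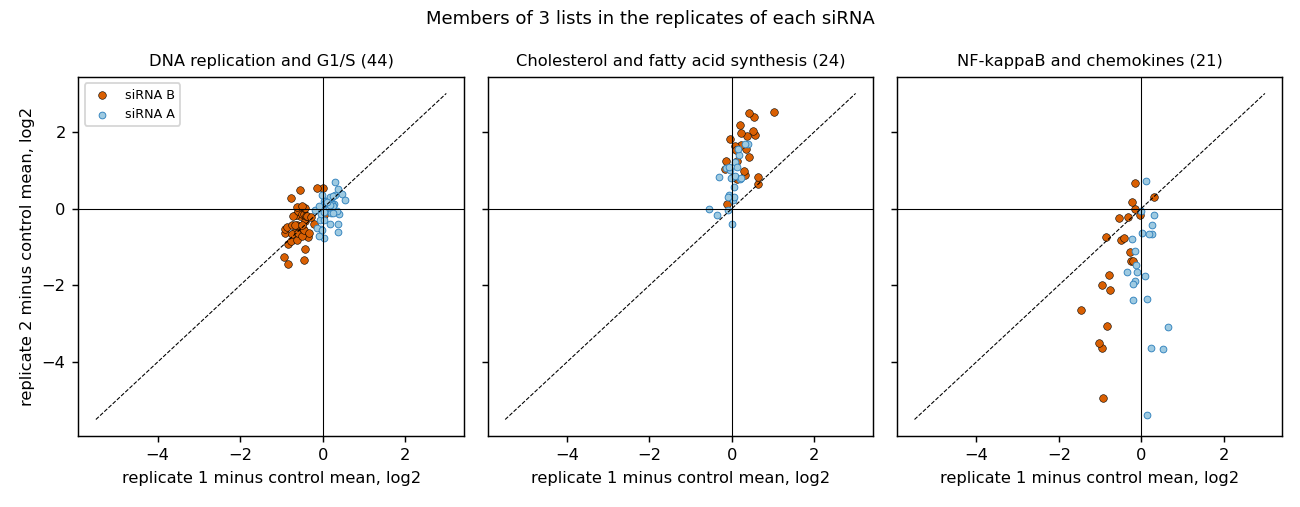
Members of the lists of DNA replication, cholesterol and fatty acid synthesis, and NF-kappaB targets are points, with log2(signal + 16) minus the control mean in replicate 1 on the x axis and in replicate 2 on the y axis (orange siRNA B, blue siRNA A, dashed line equal values). For DNA replication the siRNA B points lie lower left of the siRNA A points, with medians of -0.54 and -0.43 against 0.16 and 0.05, whereas in the other lists both siRNAs spread along the replicate 2 axis.

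Hypoxia and glycolysis genes had a median of -0.29, with 20 of 32 below and 2 above, against 26.3% and 13.1% of all tested genes. After other scalings, however, 4 to 7 lay below (12.5% to 21.9%), against 24.6% to 25.4% of all tested genes. The median was -0.10 in replicate 1 and -0.64 in replicate 2. CA12, a membrane carbonic anhydrase, read 3400.4 and 3434 against 1896 and 264, and VEGFA, the vascular growth factor, 1875 and 1734 against 1390.0 and 246. For both genes and for hexokinase HK2 (-1.17), most of the difference came from replicate 2. DDIT4, an inhibitor of mTOR signalling, was similar between replicates (520.3 and 426 against 852 and 835). P4HA2, a collagen prolyl hydroxylase, was above control at 1.12, but -0.31 by the median over its probe sets. Cytosolic ribosomal proteins had 40 of 47 members below (85.1%, against 26.3% of all tested genes) and a median of -0.15. After other scalings, however, 6 to 21 lay below (12.8% to 44.7%, against 24.6% to 25.4% of all tested genes). RPL14 (-0.80) and RPS15 (-0.52) had the smallest p-values. Of 28 genes of the unfolded protein and integrated stress response, 5 lay above and 4 below (17.9% and 14.3%), with DDIT3 at 0.62 and ATF4 at -0.47. After other scalings 12 to 14 lay above (42.9% to 50%), against 21.7% to 25.3% of all tested genes.

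No gene that the androgen receptor activates in prostate cells was called. Of 27 tested, 3 lay above and 10 below both control arrays, against 13.1% and 26.3% of all tested genes. After other scalings 7 lay above and 6 or 7 below, against 21.7% to 25.3% and 24.6% to 25.4% of all tested genes. In limma 6 had an unadjusted p below 0.05, against 1399 of all 12431 tested genes, and the list median was -0.05. TRPM8, a cold-sensing ion channel, read 6106 and 5748 against 3484 and 2825 (log2 difference -0.91, SE 0.20, limma adjusted p = 0.0804). HOMER2, a synaptic scaffold protein, read 899 and 738 against 330.0 and 210.0 (log2 difference -1.57, limma adjusted p = 0.0565), but its other probe set differed by -0.03. The transporter ABCC4 and the metalloreductase STEAP4 had log2 differences of -1.15 and -0.87, and STEAP1 of 0.60, none of them called. Of 21 androgen-repressed genes, 7 lay above and 6 below (33.3% and 28.6%, against 13.1% and 26.3% of all tested genes). After other scalings 6 or 7 lay above (28.6% to 33.3%) and 5 below (23.8%), against 21.7% to 25.3% and 24.6% to 25.4% of all tested genes. In this list 3 were called, SI, UGT2B15 and UGT2B17, against 0.185% of all tested genes. ACKR3, a scavenging chemokine receptor of this list, read 968 and 1466 against 778 and 195. Among 10 luminal markers, ERG read 1901 and 2312 against 1555 and 1353, TMPRSS2 1401 and 1317 against 1124 and 819, KRT8 600.2 and 569 against 657 and 1159, and SLC45A3 317 and 338 against 443 and 752. None of the luminal markers was called.

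The NOTCH list had 9 of 23 members below and 1 above, against 26.3% and 13.1% of all tested genes. After other scalings 8 or 9 lay below (34.8% to 39.1%) and 4 above (17.4%). The shares of all tested genes were then 24.6% to 25.4% below and 21.7% to 25.3% above. The members below included MAML2 (-1.02), MAML3 (-0.96) and RBPJ (-0.95), which form the nuclear complex of the pathway. The protease ADAM10 (-0.70) also lay below, and none of them was called. Of 12 matrix and plasminogen proteases and inhibitors, 2 lay above and 4 below (16.7% and 33.3%, against 13.1% and 26.3% of all tested genes). Beside MMP10 and PLAT these included ADAMTS1 (298 and 453 against 729.5 and 1508) and the inhibitor TIMP2 (690.3 and 746 against 486 and 237, with log2 differences of -0.80 and 0.21 in the other TIMP2 probe sets). LUM, which encodes the stromal proteoglycan lumican, read 155 and 385 in control, 702 and 2019 with siRNA B and 262 and 662 with siRNA A, and COL1A1, a fibrillar collagen, 135 and 115, 223 and 196, and 82.5 and 30.9. Neither passed, and DCN, COL1A2, COL3A1 and PDGFRB, further fibroblast markers, were under the filter. Of 25 apoptosis and p53 genes, 5 lay above and 7 below (20% and 28%, against 13.1% and 26.3% of all tested genes). Among those below, GADD45A (2144 and 1943 against 1529 and 319) was set apart mainly by replicate 2. CDKN1A, the p21 cell cycle inhibitor, read 329 and 329.8 in control, 247 and 229 with siRNA B and 426 and 453 with siRNA A.

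**Figure D4:**
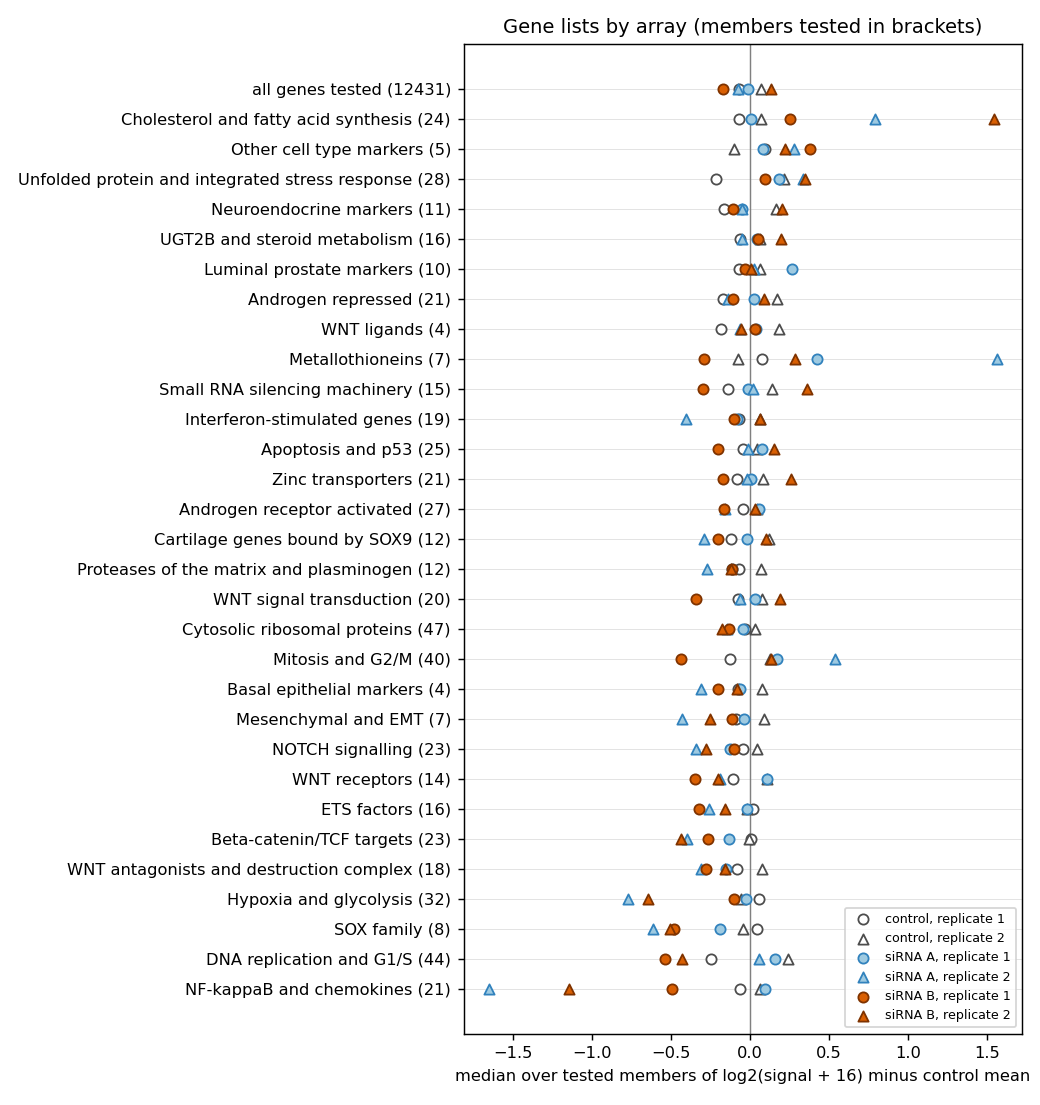
Each gene list is a line, with the median over its tested members of log2(signal + 16) minus the control mean in each of the 6 arrays on the x axis (open control, blue siRNA A, orange siRNA B, circles replicate 1 and triangles replicate 2). Over all genes tested the siRNA B arrays lie at -0.17 and 0.13, and the lists of cholesterol synthesis (0.26 and 1.55), DNA replication (-0.54 and -0.43) and NF-kappaB targets (-0.49 and -1.15) are among those farthest from this.

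Direct comparison of the siRNAs called 12 genes (0.0965% of those tested), 6 higher with siRNA B (0.0483%) and 6 lower (0.0483%), with 1023 genes at an unadjusted p below 0.05. Of these 12, 7 were also called for siRNA B against control, while siRNA A against control called 2 genes, 1 of them, HMGN2P46, among the 23. Both siRNAs share the control arrays. MET, the hepatocyte growth factor receptor, read 74.2 and 103 in control, 143 and 227 with siRNA B and 30.0 and 25.5 with siRNA A, a log2 difference between the siRNAs of 2.17 (SE 0.30, limma adjusted p = 0.00568). DIO1, which activates thyroid hormone, read 163 and 119.9 with siRNA B and 33.4 and 13.4 with siRNA A (2.03, limma adjusted p = 0.0169). For both genes the siRNAs lay on opposite sides of control. DDC, an aromatic amino acid decarboxylase of dopamine synthesis, was near control with siRNA B (208 and 162, control 208 and 331) and high with siRNA A (1139.7 and 1695), a log2 difference of -2.82 (SE 0.32, limma adjusted p = 0.00186). IGFBP5 differed by 2.05, CYP1B1 by 2.02 and UGT2B28 by 1.56. COL14A1, SMCO4 and SLC25A39 differed by -2.43, -1.55 and -1.79, with siRNA A near control. RAB8B, a small GTPase of membrane traffic, read 858 and 577 with siRNA B and 2361 and 2099 with siRNA A (control 1667 and 1937). SPCS3, a signal peptidase subunit, read 321 and 313 with siRNA B and 923 and 1133 with siRNA A (control 610 and 913). In RAB8B, SPCS3 and IGFBP5, too, the siRNAs lay on opposite sides of control, narrowly for SPCS3 in siRNA A replicate 1. Another probe set of RAB8B differed from control by 0.55 and a further one by -1.43, where the one shown differed by -1.33. For MET another probe set above the filter differed from control by -0.02, against 0.93. Other probe sets of SPCS3 differed from control by -0.13 and 0.41 where the one shown differed by -1.19. This count, too, was 0 after the other 3 scalings, without the filter and without siRNA B replicate 2 or siRNA A replicate 2 (712 to 1515 genes at an unadjusted p below 0.05 in limma), 288 without siRNA B replicate 1, 4 without siRNA A replicate 1 and 55 without either control array.

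**Figure D5:**
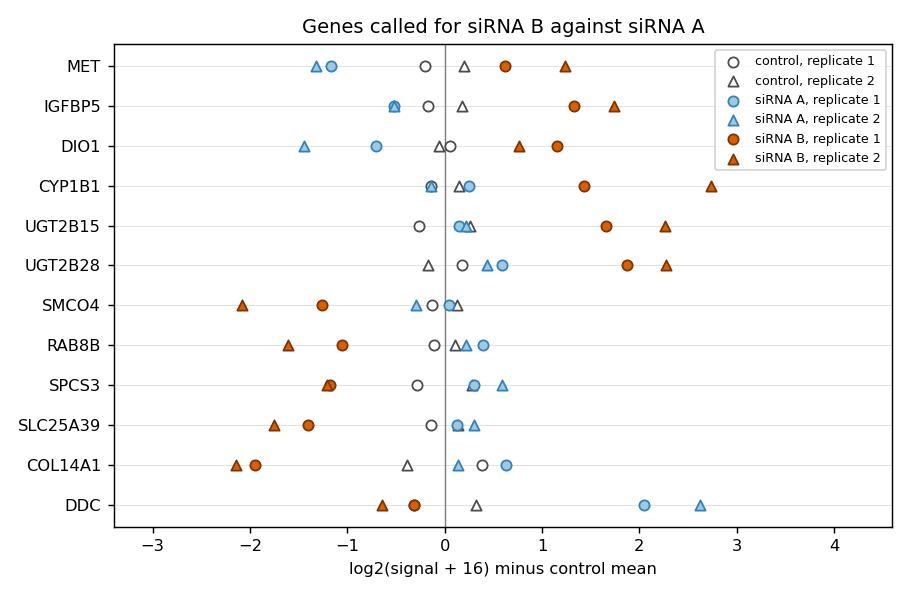
Each gene called for siRNA B against siRNA A is a line, with the log2(signal + 16) of each array minus the control mean on the x axis (open control, blue siRNA A, orange siRNA B, circles replicate 1 and triangles replicate 2). MET, DIO1, IGFBP5, RAB8B and SPCS3 have the siRNAs on opposite sides of control. DDC is far from control in the siRNA A arrays. Apart from MET, DIO1 and DDC, the genes are farthest from control in the siRNA B arrays.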

How the data were processed

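The authors deposited 1 linear intensity per probe set and array. MAS5 is the tool in the submitters' processing notes, while the version and the target of its scaling are unstated in those sources. No further scaling was applied. Probe sets took their gene symbols from the GEO platform annotation: of 54675 probe sets, 62 were controls, 41091 had 1 symbol, 1801 several and 11721 none, and 41037 of those with 1 symbol matched the RefSeq GRCh38.p14 gene table.

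On log2(signal + 16), genes were fitted with limma 3.58.1 in R 4.3.3 over 3 groups and 6 arrays (3 residual degrees of freedom, eBayes with an intensity trend) with calls at a Benjamini-Hochberg adjusted p under 0.05. The probe set with the highest mean stood for its gene, and 7344 of 19775 genes, with a mean under log2 5.25, a signal of 22.0, were left out. Arrays were grouped by their titles, and few arrays limit the precision.

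The comparison and the 30 gene lists (676 of 744 symbols with a probe set) were chosen with earlier results of these data known, as was the rule for named genes. This rule takes SOX9, up to 15 called genes per direction, filled by the largest separation between the arrays of the groups, up to 5 members per list by unadjusted p, and up to 8 per direction for siRNA B against siRNA A. Of these genes the text names a part, picked after the values were seen, as were the promoters shown and the genes at the edge of the 2-fold limit. List counts and medians carry no test. Alternatives were other log offsets, scalings, filters, probe set rules and eBayes settings, the compared groups alone, the replicate number as a block, another threshold and each array left out.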

Additional observations from a re-analysis of the deposited data

Results flagged for a closer look

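Direct comparison of the siRNAs set 12 genes apart, by limma with adjusted p below 0.05. Higher with siRNA B than with siRNA A, on the log2 scale, were MET (2.17), IGFBP5 (2.05), DIO1 (2.03), CYP1B1 (2.02), UGT2B15 (1.78) and UGT2B28 (1.56). Lower were DDC (-2.82), COL14A1 (-2.43), SLC25A39 (-1.79), SPCS3 (-1.64), RAB8B (-1.64) and SMCO4 (-1.55).

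Only among the genes reported in this text, 5 more had every siRNA B array on one side of both control arrays and every siRNA A array on the other. For none of the 5 did the siRNAs' difference pass in limma. Lower with siRNA B were thymidylate synthase TYMS (-1.26), the mitotic genes TOP2A (-0.72) and NUSAP1 (-0.80), and the cell cycle inhibitor CDKN1A (-0.84). The collagen gene COL1A1 (1.73) was higher with it. For NUSAP1 the nearest siRNA A and control arrays were almost equal, at 1971.6 and 1971.3.

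Outside the genes analysed, 13522 probe sets had no single gene symbol, of which 4227 were above the filter. Among these, 4 lay at least 2-fold above both control arrays in each siRNA B array and 11 at least 2-fold below.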

How the results depend on the processing

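Scaling, 1 filter and single arrays decided the number of calls. For siRNA B against control, 23 genes were called, and 0 after quantile normalization, median centring, a common trimmed mean or without the filter (1833, 1623, 1764 and 1629 genes at an unadjusted p below 0.05 in limma). The count was 15 with each probe set on its own, 14 without the intensity trend, 36 with robust eBayes, 8 with only the groups compared and 44 at an adjusted p below 0.10, and it ranged from 0 to 991 with an array left out. For siRNA B against siRNA A, 12 genes were called, and 0 after the 3 scalings or without the filter (1515, 1352, 1479 and 1371 genes at an unadjusted p below 0.05 in limma). This count was 4 with the median over probe sets, 6 without the trend, 25 with robust eBayes, 57 with only the groups compared and 28 at 0.10, and 0 to 288 with an array left out. The 51 genes at least 2-fold apart became 96 with an offset of 1, 25 with an offset of 64 and 30 with the median over probe sets, and 51 to 899 with an array left out. Of all tested genes, 13.1% lay above and 26.3% below both control arrays, but 25.3% and 24.6% after quantile normalization, 21.7% and 25.4% after median centring and 24.6% and 24.7% with a common trimmed mean. By the median over probe sets SPCS3 was at 0.41 and P4HA2 at -0.31, against -1.19 and 1.12 by the probe set shown. The labels number the replicates alike in all groups, but 2 numbers cannot establish a pairing: deviations of same-numbered arrays correlated at 0.18 between siRNA B and control and 0.63 between the siRNAs. With the replicate number as a block, 732 genes were called against control and 361 against siRNA A, with median centring as well 707 and 357. SOX9 stayed at -1.48 with the block (limma adjusted p = 1.76e-05) and was -1.45 with the block and median centring (limma adjusted p = 0.00210), and -1.90 to -1.06 with an array left out. Signals near the filter level, as for FZD7, ART3, EPHA8, COL14A1 and PLAT in siRNA B arrays, leave the size of a fall open.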

Other observations

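The metallothioneins, small proteins that bind zinc and copper, were among the lists in which the siRNA B arrays lay on both sides of the control mean. None of 7 tested members had both siRNA B arrays above or both below the control arrays, and the list median was -0.29 in replicate 1 and 0.29 in replicate 2. In the siRNA A arrays it was 0.43 and 1.57. Among all tested genes, 13.1% lay above and 26.3% below both control arrays. Interferon-stimulated genes, which respond to foreign double-stranded RNA, had 4 of 19 tested members above and 1 below (21.1% and 5.26%). Their list medians were -0.10 and 0.07 in the siRNA B arrays. Of 15 genes of the small RNA silencing machinery, 1 lay above and 2 below (6.67% and 13.3%), with medians of -0.30 and 0.36. No member of these lists was called for siRNA B.

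The ETS factors, the family of ERG, had 8 of 16 tested members below both control arrays and none above, against 26.3% and 13.1% of all tested genes. The list median was -0.25. After other scalings 5 to 7 members lay below, against 24.6% to 25.4% of all tested genes. Of 12 cartilage genes that SOX9 is known to bind, 1 lay above and 3 below (8.33% and 25%), near the shares of all tested genes. Neuroendocrine markers had 3 of 11 above and 4 below, genes of the mesenchymal state 2 of 7 below, and basal epithelial markers 2 of 4 below. None of these genes was called for siRNA B against control.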
